A study of Mus musculus with 16 samples.

Results

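The proteasome subunits, assembly factors and activators examined here are the genes whose symbol starts with Psma, Psmb, Psmc, Psmd, Psme, Psmf or Psmg followed by a number. Of 35682 genes in the count table, 56 matched; 5 pseudogene copies and 4 genes with a mean count under 10 were left out, which gave 47 members. RNA came from adult ventricular myocytes of 8 B3AR-Tg mice, whose transgene name refers to a beta-adrenergic receptor, and of 8 WT (wild-type) littermates, all taken 9 weeks after transverse aortic constriction (TAC), which raises the pressure load on the left ventricle. Both genotypes had the surgery, so the comparison is of genotype under load. The promoter that drives the transgene, the age of the animals and their sex are not given in the sources used here. Library totals ran from 5985335 to 14365864 counts.

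The proteasome degrades proteins that carry ubiquitin chains. Its barrel-shaped core, the 20S particle, stacks outer rings of alpha subunits, which gate the entrance, on inner rings of beta subunits, which hold the proteolytic sites. The 19S regulator caps the barrel: a base with ATPases unfolds the substrate, and a lid removes ubiquitin. Interferon can replace the catalytic beta subunits by inducible ones, giving the immunoproteasome, and in heart muscle the proteasome takes part in the turnover of sarcomere proteins.

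In short, RNA of the constitutive proteasome differed little between the genotypes. Of the 46 members that passed the low-count filter, 0 were called higher and 1 lower in B3AR-Tg, the lid subunit Psmd8, by the quasi-likelihood test of edgeR at an adjusted p under 0.05. Over all 10945 genes tested, 4.91% were called, 2.03% higher and 2.88% lower. The inducible subunit Psmb10 had the most negative fold change among the 46 tested members and missed the threshold. The proteasome assembly chaperone Pomp, which the symbol rule does not take in, was called lower. The calls of Psmd8 and Pomp were each lost in some of the alternative fits.

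Promoter windows are shown for the genes on which the comparison turns, Psmd8, Psmb10 and Pomp, and for Psmb5 as a constitutive catalytic subunit that holds a motif known from proteasome genes. RefSeq (GRCm38.p6) gave a window of 300 bases, 250 before and 50 after the start, for 39 of the 47 members. Capitals mark a motif found on either strand, and the windows lie at chr7:29180624-29180923 (minus strand) for Psmd8, chr8:105938343-105938642 (minus) for Psmb10, chr5:147860378-147860677 (plus) for Pomp and chr14:54617946-54618245 (minus) for Psmb5.
Psmd8: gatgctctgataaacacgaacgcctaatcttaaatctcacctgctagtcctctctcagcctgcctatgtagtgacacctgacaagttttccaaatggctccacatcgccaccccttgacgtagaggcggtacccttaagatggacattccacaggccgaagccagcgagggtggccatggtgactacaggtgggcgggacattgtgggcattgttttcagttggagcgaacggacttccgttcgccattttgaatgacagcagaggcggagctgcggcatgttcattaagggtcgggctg
Psmb10: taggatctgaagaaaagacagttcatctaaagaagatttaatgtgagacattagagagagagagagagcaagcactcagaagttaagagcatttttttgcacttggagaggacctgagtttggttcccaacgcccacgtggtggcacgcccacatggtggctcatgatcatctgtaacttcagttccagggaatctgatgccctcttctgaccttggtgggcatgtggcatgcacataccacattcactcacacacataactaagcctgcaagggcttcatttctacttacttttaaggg
Pomp: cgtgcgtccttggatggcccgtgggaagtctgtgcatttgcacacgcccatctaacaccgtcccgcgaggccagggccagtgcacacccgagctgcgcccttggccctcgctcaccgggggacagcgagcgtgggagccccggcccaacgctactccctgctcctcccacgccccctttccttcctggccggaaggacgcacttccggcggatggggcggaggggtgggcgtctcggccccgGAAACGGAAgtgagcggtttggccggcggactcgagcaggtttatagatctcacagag
Psmb5: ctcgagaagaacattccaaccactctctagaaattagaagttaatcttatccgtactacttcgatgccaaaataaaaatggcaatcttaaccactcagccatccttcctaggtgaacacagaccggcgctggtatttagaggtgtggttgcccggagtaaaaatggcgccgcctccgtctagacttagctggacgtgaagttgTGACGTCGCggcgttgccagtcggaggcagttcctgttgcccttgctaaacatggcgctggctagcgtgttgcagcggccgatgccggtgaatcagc
The antioxidant response element core TGACNNNGC, bound by the Nfe2l1 and Nfe2l2 proteins, was found in 6 of 43 member windows (the share over all 32851 windows was 12.4%). It was in the windows of Psmb5, Psmb6, Psmc6, Psmd12, Psmd9 and Psme4. CCAAT was found in 13 (30.2%, against 37.4%). The interferon response core GAAANNGAA was found in 7 (16.3%, against 8.56%), and the STAT site core TTCNNNGAA in 3 (6.98%, against 8.3%). Psmd8 and Psmb10 held none of these motifs in the window, and Pomp held 1 interferon response core. A match is a description of letters only.

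Levels were compared between subunits per kilobase of transcript, as CPM (counts scaled to library size and by TMM factors) divided by the length of the principal transcript in GENCODE M21. Over all 16 animals the highest means were those of the beta subunits Psmb6, with 113.8 ± 9.81 CPM per kb (SD, n = 16), and Psmb7, with 110.3 ± 11.4, which differed by less than the spread between animals. Both belong to the proteolytic subunits of the core. The third, Psmb5, had 18.7 ± 2.32 CPM per kb, the lowest of the constitutive beta ring. Its transcript is 98.9% identical over 796 bases to that of Gm3375, whose mean count was 129.8 beside 169.6 for Psmb5. How reads were shared between the pair is uncertain, and Psmb5 and Gm3375 together came to 33.0 CPM per kb.

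In the alpha ring, Psma7 (80.9 ± 7.83 CPM per kb), Psma4 (77.4 ± 10.4), Psma6 (70.8 ± 7.89) and Psma1 (63.3 ± 6.12) formed a run in which each differed from the next by no more than about their spread. Psma5 (34.3 ± 4.79), Psma3 (27.5 ± 2.95) and Psma2 (25.5 ± 2.66) lay lower. Psma8, an alpha subunit known from the testis, had 0.659 ± 0.418. Among the ATPases of the base the range was from 21.7 ± 3.65 (Psmc2) to 85.1 ± 8.45 CPM per kb (Psmc3). The other base and lid subunits ran from 12.2 ± 2.11 (Psmd7) to 51.2 ± 5.86 (Psmd6). Assembly factors, which help to join the subunits, ran from 1.98 ± 0.840 (Psmg3) to 17.0 ± 2.62 (Psmg2). The activator Psme4 reached 83.4 ± 11.5 and Psme1 71.1 ± 11.0, while Psme2 had 24.7 ± 3.30, Psme3 had 11.2 ± 0.959 and the inhibitor Psmf1 2.55 ± 0.473. With the median length of each gene's protein-coding transcripts, 12 of the 47 levels were over 1.5 times higher, Psme4 at 824.0 and Psmd2 at 207.9 CPM per kb among them, so the order between genes depends on the length used.

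**Figure D1:**
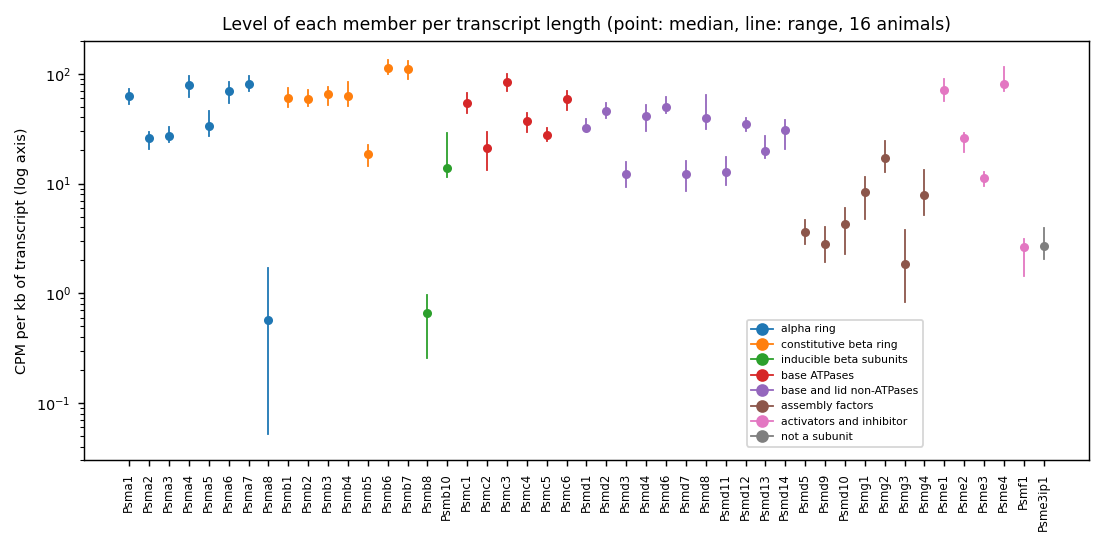
Level of each of the 47 members in CPM per kb of principal transcript (log axis), coloured by role; points are medians and lines the range over 16 animals. Psmb6 and Psmb7 lie highest, and Psmb8 and Psma8 lie under 1 CPM per kb at the median.

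The alpha ring as a whole summed to 521.9 ± 47.5 CPM in WT and 496.0 ± 42.7 in B3AR-Tg (SD, n = 8 each), and the constitutive beta ring to 518.2 ± 39.7 and 520.9 ± 52.6. The 20S sum was 1040 ± 85.4 in WT and 1017 ± 93.0 in B3AR-Tg, and the 19S sum 1210 ± 68.4 and 1163 ± 60.4. The 19S sum over the 20S sum was 1.17 ± 0.0662 and 1.15 ± 0.0601. Each of these differences was within the spread between animals, and the groups overlapped. In bulk RNA, fewer cells of a type and less RNA per cell cannot be told apart.

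Among the 7 tested alpha subunits, 0 were called and 1 had a positive fold change, with a median log2 fold change of -0.08. The most negative was Psma5, at -0.15 (SE 0.09, edgeR adjusted p = 0.397), with 44.7 ± 7.59 CPM in WT and 40.2 ± 2.60 in B3AR-Tg. All 8 B3AR-Tg animals lay below the WT median, between 36.1 and 43.4 CPM, while WT ran from 33.3 to 57.1. The share of all tested genes with all 8 B3AR-Tg animals on the same side of the WT median was not computed. Here and below, such a count therefore has no background. The only alpha subunit with a positive value was Psma2, at 0.04 (SE 0.08, edgeR adjusted p = 0.838). The other alpha subunits lay between, with log2 fold changes of -0.14 for Psma3, -0.10 for Psma4, -0.08 for Psma7, -0.07 for Psma6 and -0.04 for Psma1. Psma8 did not pass the low-count filter, with 6 to 32 counts per library in WT and 1 to 14 in B3AR-Tg. It had 1.57 ± 0.655 CPM in WT and 0.659 ± 0.410 in B3AR-Tg, and all 8 B3AR-Tg animals lay below the WT median. In the 12 other settings that tested Psma8 it was called lower in 1, without WT replicate 1 (log2 fold change -1.35, adjusted p = 0.0439), and with the filter of a mean count of 10 it had -1.24 (adjusted p = 0.0553).

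In the constitutive beta ring 0 of 7 were called, 5 had positive fold changes and the median log2 fold change was 0.08. The catalytic subunits Psmb5 (log2 fold change 0.09, SE 0.10), Psmb6 (0.05, SE 0.07) and Psmb7 (-0.00, SE 0.08) had 95% intervals within 0.5 on either side of 0. Psmb5 lay between 13.8 and 18.0 CPM in WT and between 12.9 and 20.3 in B3AR-Tg, and its copy Gm3375 had a log2 fold change of 0.14 (SE 0.15, adjusted p = 0.643). The non-catalytic Psmb2 and Psmb4 had 0.09 and 0.08. Psmb3, also non-catalytic, had the most positive value of the ring, 0.10 (SE 0.08, adjusted p = 0.554). Psmb1 had the most negative, -0.15 (SE 0.08, adjusted p = 0.318), with 113.0 ± 12.2 CPM in WT and 101.7 in B3AR-Tg, where the values ran from 86.7 to 115.8.

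The inducible subunits were examined apart. Psmb10, the interferon-inducible counterpart of Psmb7, had 26.1, 26.3, 18.4, 29.0, 23.7, 16.03, 18.3 and 37.7 CPM in WT replicates 1 to 8 and 17.1, 16.2, 20.8, 21.4, 17.4, 15.1, 17.8 and 16.5 in those of B3AR-Tg. WT was spread widely with replicate 8 highest, while the B3AR-Tg animals were tight, and the groups overlapped through WT replicates 3, 6 and 7. The log2 fold change was -0.47 (SE 0.14, 95% interval -0.77 to -0.17), which missed the threshold in edgeR (adjusted p = 0.0633). Psmb10 passed in 1 of 11 other settings, DESeq2 (adjusted p = 0.0308), and in 3 of the 16 fits that left out 1 animal. Those 3 were without WT replicate 3 (0.0371), 6 (0.0286) or 7 (0.0436), the animals through which the groups overlapped. Without WT replicate 8, the highest, the log2 fold change was -0.35 (edgeR adjusted p = 0.129).
Psmb8, the counterpart of Psmb5, rested on 4 to 17 counts per library, with 1.19 ± 0.313 CPM in WT and 0.986 ± 0.356 in B3AR-Tg and a log2 fold change of -0.25 (SE 0.27, adjusted p = 0.662). Just inside the minimum mean count of 10 were Psmb8 (10.7) and Psma8 (10.9), and just outside it Psmc3ip (9.12) and Psmb9 (5.62), the counterpart of Psmb6. Psmb9 did not pass the low-count filter, with 3 to 10 counts per library. It had 0.769 ± 0.328 CPM in WT and 0.435 ± 0.194 in B3AR-Tg. All 8 B3AR-Tg animals lay below the WT median, and the groups overlapped. Psmb11, known from the thymus, had a mean count of 0.188. Per kilobase, Psmb10 made up 14.4% ± 3.59 of Psmb10 plus Psmb7 in WT and 11.1% ± 2.10 in B3AR-Tg, with overlap, and Psmb8 3.92% ± 1.23 and 3.14% ± 1.45 of Psmb8 plus Psmb5. On the same scale Psmb9 made up 0.506% ± 0.213 of Psmb9 plus Psmb6 in WT and 0.283% ± 0.139 in B3AR-Tg, with overlap. The Psmb8 share takes Psmb5 without its copy Gm3375. It also depends on the length used, as Psmb8 had 0.667 CPM per kb with the principal transcript and 1.293 with the median length.

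Among the 6 ATPases of the base, 0 were called and 3 had positive fold changes (median -0.00). Psmc2 had the most positive log2 fold change of all members, 0.22 (SE 0.11, adjusted p = 0.265). Its WT values lay between 34.7 and 40.7 CPM except 23.9 in replicate 8, and those of B3AR-Tg between 34.7 and 52.8, so the groups overlapped. Psmc1 had the most negative, -0.13 (SE 0.08, adjusted p = 0.406). The log2 fold changes of the other ATPases were -0.11 (Psmc6), -0.01 (Psmc4), 0.00 (Psmc3) and 0.08 (Psmc5).

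Of the 11 tested non-ATPase subunits of base and lid, 0 were called higher and 1 lower, and 4 had positive fold changes (median -0.06). Psmd8, a subunit of the lid, had 86.9, 97.7, 67.9, 103.8, 90.4, 97.7, 86.1 and 126.4 CPM in WT replicates 1 to 8 and 69.2, 75.0, 83.0, 65.0, 61.8, 74.7, 75.1 and 66.2 in those of B3AR-Tg. All 8 B3AR-Tg values lay below the WT median, and the groups overlapped only through WT replicate 3. Psmd8 was lower by a log2 fold change of -0.41 (SE 0.10, 95% interval -0.62 to -0.20, edgeR adjusted p = 0.0225). The call was lost without WT replicate 4 (adjusted p = 0.0508) or B3AR-Tg replicate 5 (0.0535), and with scaling by library size only (0.0839) or markers of other cells as a covariate (0.178).
Psmd12, also of the lid, had 69.7 ± 3.61 CPM in WT and 63.1 ± 3.83 in B3AR-Tg. Its difference was -0.14 on the log2 scale (SE 0.06, edgeR adjusted p = 0.218). Psmd11, a lid subunit, had the most positive of these, 0.12 (SE 0.12, adjusted p = 0.634). Psmd14, the deubiquitinase of the lid, had 49.8 ± 5.76 CPM in WT and 44.0 ± 8.08 in B3AR-Tg, or -0.18 on the log2 scale (SE 0.11, adjusted p = 0.393). Its partner Psmd7 had 0.09 (SE 0.12), and the ubiquitin receptor Psmd4 had -0.06 (SE 0.10). The scaffold subunits of the base, Psmd1 and Psmd2, had -0.00 (SE 0.07) and 0.05 (SE 0.07). Of the remaining lid subunits, Psmd3 had 0.03 (SE 0.10), Psmd6 -0.11 (SE 0.08) and Psmd13 -0.11 (SE 0.09). Psmd13 shares 329 identical transcript bases with Sirt3, which overlaps it on the opposite strand and had a log2 fold change of 0.04 (SE 0.10).

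Assembly factors had 0 of 7 called, with a median log2 fold change of 0.08. Psmg2, which helps to build the alpha ring, had the most positive, 0.20 (SE 0.10, adjusted p = 0.313), and Psmd5, a chaperone of the base, the most negative, -0.16 (SE 0.10, adjusted p = 0.409). Psmg1, the partner of Psmg2, had 0.19 (SE 0.15), and the base chaperones Psmd10 and Psmd9 had 0.15 (SE 0.17) and -0.03 (SE 0.15). Psmg3 and Psmg4, which act together, had 0.08 (SE 0.30) and -0.08 (SE 0.19), with the widest spread of the group. Among the activators and the inhibitor, 0 of 5 were called. Psme1 and Psme2, which form one activator cap together, had 0.10 (SE 0.11) and 0.08 (SE 0.10), Psme3, which forms another, had 0.07 (SE 0.08), and Psmf1, which inhibits the core, had 0.03 (SE 0.14). Psme4 had 573.7 ± 87.8 CPM in WT and 509.1 ± 43.8 in B3AR-Tg, which is -0.17 on the log2 scale (SE 0.09, adjusted p = 0.308). Psme3ip1 matches by symbol but is not a subunit, and had -0.18 (SE 0.13, adjusted p = 0.497).

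**Figure D2:**
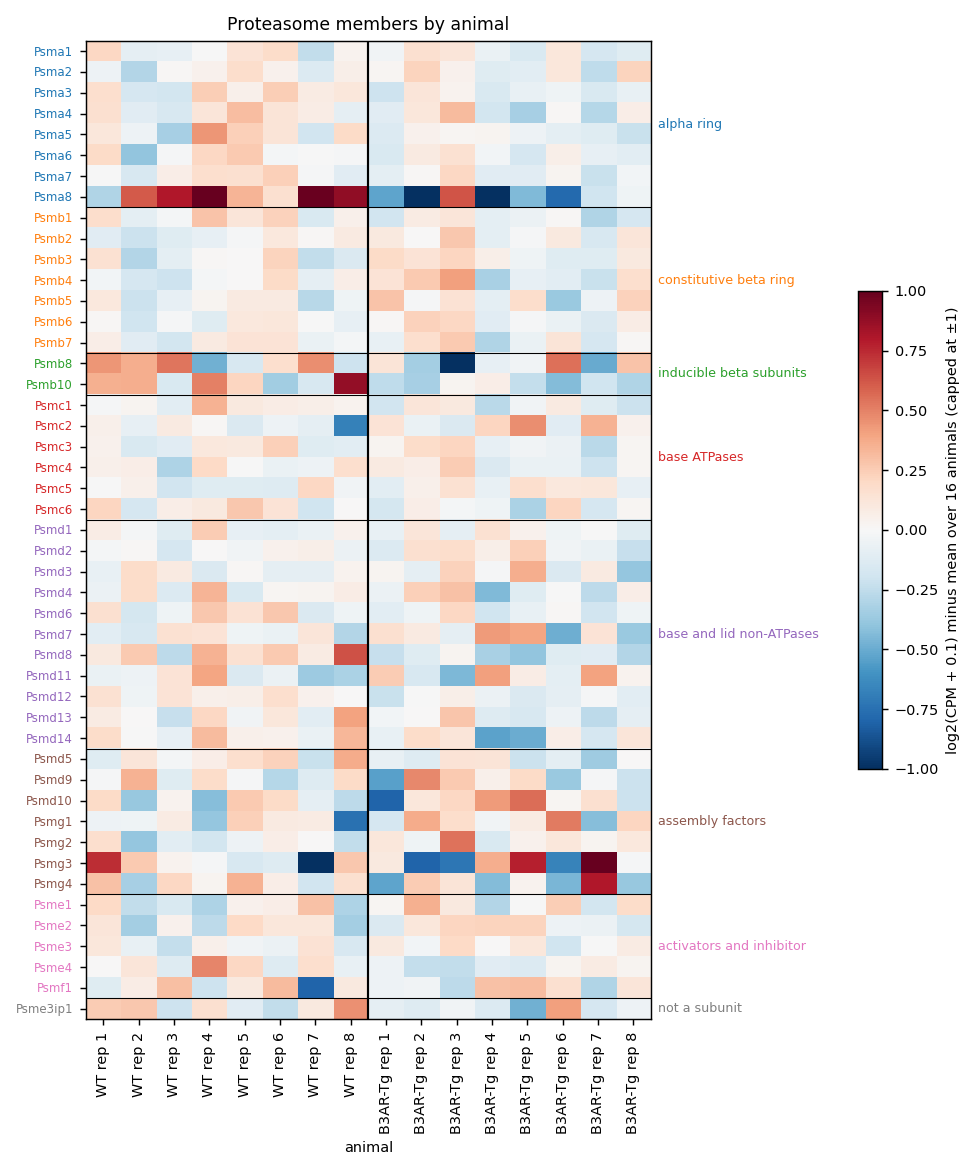
Level of 47 members (rows, by role) in 16 animals (columns) as log2(CPM + 0.1) minus the mean over animals, capped at 1 either way. Psmd8, Psmb10 and Psma8 are red in most WT animals, and most other rows show no step at the line between genotypes.

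Over all 46 tested members, 21 fold changes were positive and 25 negative, with a median log2 fold change of -0.01, against 0.01 for all genes. With scaling by library size only, 29 of the 46 were positive and the median was 0.07, against 0.08 for all genes. In the main fit the median size of the log2 fold change was 0.09, against 0.15 for all genes. The 95% interval lay within 0.5 of 0 for 40 of 46 members and within a change of 25% for 27, against 6112 and 2747 of all 10945 genes. The median SE was 0.09 for the members and 0.14 for all genes, and these comparisons were not matched for level. Before adjustment 0 members were higher and 3 lower (Psmd8, Psmb10 and Psmd12), against 19.3% of all genes in either direction. That count of 3 was 6 without WT replicate 3 or B3AR-Tg replicate 2 and with library size only. It was 5 without WT replicate 1 or 2, without B3AR-Tg replicate 3, 4 or 7, and without mitochondrial genes and Gm20594. Without WT replicate 1, without B3AR-Tg replicate 2, 4 or 7, and without mitochondrial genes and Gm20594, 47 members were tested. The added member was Psma8, which has few counts and had an unadjusted edgeR p under 0.05 in each of these fits. The shares of all genes in these settings are not given here, so these counts cannot be set against a background. No member had groups that did not overlap, against 0.448% of all genes. DESeq2 called 0 higher and 2 lower (7.35% of all genes called), and limma voom 0 higher and 1 lower (6.45%). Within a genotype the SD of log2 CPM of the 31 tested constitutive subunits was 0.157 at the median, against 0.201 for 3954 genes in the same range of levels.

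**Figure D3:**
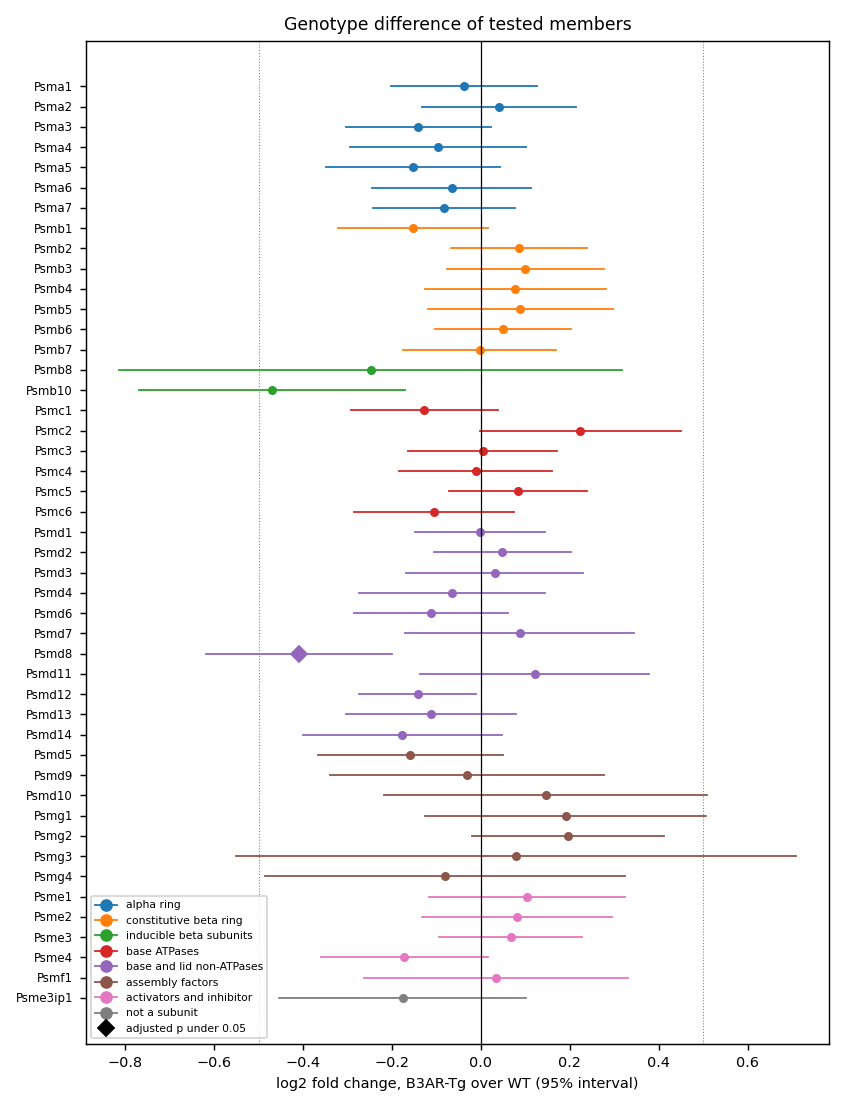
Log2 fold change of B3AR-Tg over WT with its 95% interval for the 46 tested members, by role; the diamond marks an adjusted p under 0.05 and dotted lines a change of 0.5. Most intervals cross 0, while those of Psmd8, Psmb10 and Psmd12 do not.

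Genes that act with the proteasome were taken from lists. Of 23 tested proteasome-associated genes 1 was higher and 1 lower (median log2 fold change -0.04). Over all tested genes 2.03% were called higher and 2.88% lower, the background for the counts of this and the later lists. Pomp, the chaperone of 20S assembly, had 74.1, 58.9, 60.6, 80.9, 82.5, 79.1, 55.8 and 62.3 CPM in WT replicates 1 to 8 and 46.5, 56.6, 57.2, 53.1, 49.1, 59.4, 52.4 and 54.8 in B3AR-Tg. All B3AR-Tg values were below the WT median, and the groups overlapped between 55.8 and 59.4 CPM. The log2 fold change was -0.37 (SE 0.09, adjusted p = 0.0245), and the call was lost without WT replicate 4 (0.0594) or B3AR-Tg replicate 5 (0.0591), with library size only (0.0514) and with markers of other cells as a covariate (0.0831).
Zfand5, a zinc finger protein that activates the proteasome, lay between 153.9 and 171.5 CPM in WT and between 168.5 and 206.7 in B3AR-Tg, above the WT median in all 8. Its log2 fold change was 0.23 (SE 0.06, adjusted p = 0.0421), and the call held in 3 of the 16 fits that left out 1 animal. It was lost with no low-count filter (adjusted p = 0.077) and with the covariate, where the log2 fold change was 0.15 (adjusted p = 0.447).

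Ubiquitin genes and activating enzymes (9 tested) had 0 called, with a median log2 fold change of 0.07, and regulators of proteasome gene expression (12 tested) had 0 called, with 0.06. Nfe2l1, a transcription factor that raises proteasome genes when the proteasome is inhibited, had 0.05 (SE 0.07, adjusted p = 0.751), and Nfe2l2 0.11 (SE 0.11, adjusted p = 0.606). Of 11 tested interferon and antigen presentation genes, 0 were higher and 1 lower, with a median of 0.19. That one was B2m, the light chain of MHC class I, between 47.3 and 83.8 CPM in WT and 24.9 and 59.5 in B3AR-Tg (log2 fold change -0.79, SE 0.16, adjusted p = 0.00771). The class I heavy chains H2-K1 (-0.51, adjusted p = 0.0609) and H2-D1 (-0.51, adjusted p = 0.0809) missed the threshold, as did the peptide transporter Tap1 (0.59, adjusted p = 0.225). Tap2 (0.32, edgeR adjusted p = 0.2287) and Tapbp (0.27, adjusted p = 0.2295) also missed it, with all 8 B3AR-Tg animals above the WT median in both.

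**Figure D4:**
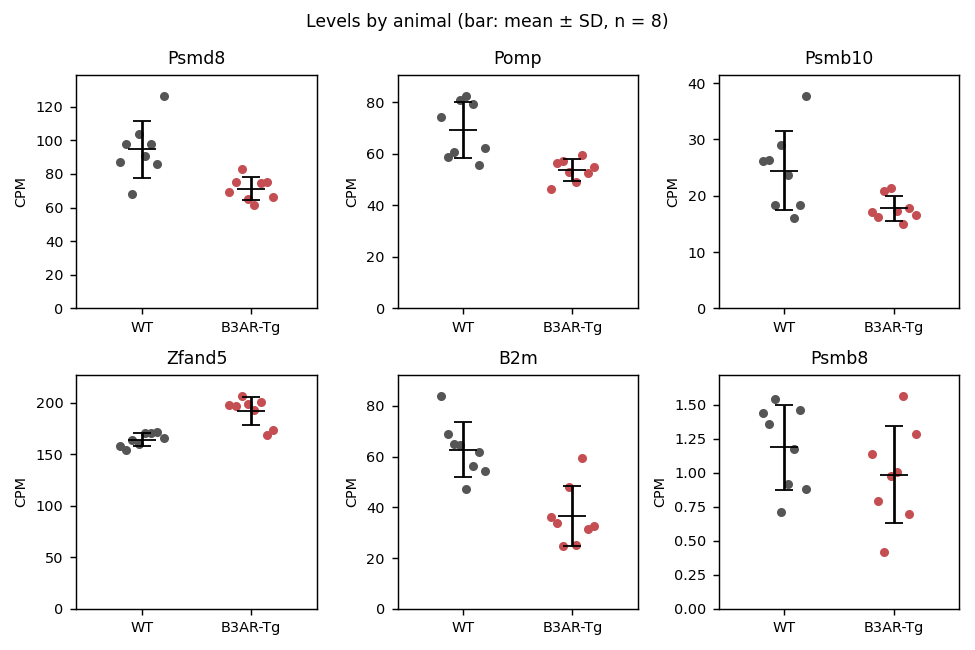
CPM of Psmd8, Pomp, Psmb10, Zfand5, B2m and Psmb8 in each animal (points) with mean ± SD (n = 8 per genotype); axes start at 0. Zfand5 is higher in B3AR-Tg, Psmd8, Pomp and B2m are lower, and in each panel the groups overlap.

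Some markers of other cell types, of fibroblasts and endothelial cells, were called lower in B3AR-Tg beside these results. Fibroblast markers summed to 76.2 ± 26.7 CPM in WT and 28.5 ± 13.9 in B3AR-Tg (4 of 6 called lower), with ranges that overlapped, and endothelial markers to 92.0 ± 12.3 and 64.5 ± 27.2 (2 of 6 lower). Leukocyte markers summed to 10.5 ± 4.13 and 6.01 ± 2.51 (0 of 3 tested called), with Cd3e at 0 in all animals, and mural markers to 104.2 ± 25.1 and 101.1 ± 32.1 (0 of 5 tested called, Acta2 with a positive log2 fold change of 0.42). Myocyte markers summed to 78420 ± 9731 and 87890 ± 10850 CPM, far above every other-cell list, and 1 of 8 was called higher, the calcium release channel Ryr2 (log2 fold change 0.46, edgeR adjusted p = 0.0359). With the mean level of the other-cell markers as a covariate, which had a correlation of -0.71 with genotype (n = 16), Psmd8 had -0.44, Pomp -0.52, Psmb10 -0.30 (adjusted p = 0.539), Psmb7 -0.22 (adjusted p = 0.335) and B2m -0.61 (adjusted p = 0.214). In that fit 0 members were called, 9 of 46 members had positive fold changes and their median log2 fold change was -0.14, while all genes had a median of 0.00 with 50.34% positive. Before adjustment, 12 members had a p under 0.05 in that fit. The share of all genes at that threshold in the fit is not given here, so the 12 have no background. As the covariate varied with genotype, that fit cannot tell the part of other cells from that of genotype. The part of other cells in these differences was not tested.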

How the data were processed

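The authors deposited 1 table of whole-number counts per gene for the 16 libraries, made with Salmon on GRCm39 per the submitters' processing notes; versions, the annotation release and how reads of near-identical genes were shared are not given in the sources used here. Per the labels' protocols, myocytes came from Langendorff perfusion and were plated before RNA extraction, and stranded total RNA libraries followed ribodepletion of 500 ng of RNA. Genotype and replicate came from the labels, and each library is a separate animal.

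Counts were tested as deposited in edgeR 4.0.16 by its quasi-likelihood test (R 4.3.3; filterByExpr, minimum count 10 and total 15; TMM scaling; genotype alone), two-sided, with Benjamini-Hochberg adjustment over all 10945 tested genes. The code of the fit was also run on counts simulated from the levels and spreads estimated here, which does not check the model for these data. Alternatives used DESeq2 1.42.0, limma 3.58.1 (voom), other scalings and filters, a covariate of other-cell markers, the replicate number as a block and the removal of each animal. The limma voom fit weighted each library by its estimated quality. CPM values carry the TMM factors, and 3 counts were 0.201 to 0.487 CPM. Near-identical transcripts were sought with BLAST 2.17.0 (at least 90% identity over 200 bases): 19 members had one in another gene, and 2 of the partners had a mean count of 10 or more, Gm3375 (for Psmb5) and Sirt3, which overlaps Psmd13 on the opposite strand.

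Transcript lengths came from GENCODE M21 on GRCm38 and were used only for levels per kilobase. The median length was computed first; the APPRIS principal transcript replaced it after the values were seen, because short partial transcripts set the median of some genes. The members and gene lists were chosen with earlier results of these data known. Named genes were the called members, the inducible and catalytic beta subunits, the activators and inhibitor, the members with the most positive and most negative fold change of each role, and called genes of the lists with Pomp, Nfe2l1 and Nfe2l2; values of other genes were added after their values were seen.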

Additional observations from a re-analysis of the deposited data

Results flagged for a closer look

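A search for a single animal far from the other 7 of its genotype was made in 102 groups of 8 (51 genes), on log2 CPM. It marked 6, and chance marks about 1 in 20 groups. The gap to the nearest animal as a share of the whole range was 0.527 for Psmf1 in WT replicate 7 (5.42 CPM, the others from 8.21 to 11.9), 0.573 for Psma6 in WT replicate 2 (55.9, the others from 72.5 to 88.0) and 0.699 for Psmc2 in WT replicate 8 (23.9, the others from 34.7 to 40.7), each lowest. It was 0.626 for Psmg2 in B3AR-Tg replicate 3 (26.1, the others from 16.1 to 19.3), 0.555 for Psmc1 in WT replicate 4 (106.6, the others from 77.7 to 89.4) and 0.531 for Nfe2l1 in WT replicate 4 (326.4, the others from 261.1 to 289.9), each highest.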

How the results depend on the processing

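The count of members called higher was 0 in every alternative run. The count called lower, 1 as reported, was 0 with library size only, the other-cell covariate and the replicate block, and 2 with DESeq2 and at an adjusted p under 0.10; leaving out 1 animal gave 0 to 2. Of all genes 537 were called, against 21 with the covariate, 230 with the replicate block and 908 at 0.10, and 272 to 675 with 1 animal left out (272 without WT replicate 4, 277 without B3AR-Tg replicate 5, 345 without B3AR-Tg replicate 8). Animals with the same number did not deviate together (correlations -0.251 to 0.0953), so the numbers do not pair them. With the block, Psmd8 had an adjusted p of 0.0929, Pomp 0.0883 and Zfand5 0.161. The covariate turned the log2 fold change of Psmb6 to -0.14, Psme1 to -0.12, Psme2 to -0.081, Psmf1 to -0.034, Psma2 to -0.13 and Psmb3 to -0.053. Psmb7, near 0, was -0.22 with the covariate, 0.075 with library size only, 0.015 with no filter, 0.0011 without mitochondrial genes and Gm20594, and -0.043 to 0.036 with 1 animal left out, and Psmf1 was -0.047 to 0.083. The causes were not tested. With library size only the median of all genes was 0.08 and that of the members 0.07, with 29 of 46 positive and 64.65% of all genes positive against 51.12%. Members with few counts, such as Psmb8 and Psma8, allow no close comparison at this depth. Levels per kilobase were also computed, after the data were seen, with the longest and the median protein-coding transcript.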
